A study of Mus musculus with 6 samples.

Results

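The estrogen-related receptors (ERRs) and the proteins that switch them on or off were followed here as 10 genes, of 18193 genes with a symbol of their own on the array. They are the 3 receptor genes Esrrb, Esrra and Esrrg, the PGC-1 coactivator genes Ppargc1a, Ppargc1b and Pprc1, the corepressor gene Nrip1, and the p160 coactivator genes Ncoa1, Ncoa2 and Ncoa3. All probe sets annotated to these genes were taken, 30 in number, and none of them carried the symbol of another gene. A filter on mean signal left 28 for testing. The 2 that did not pass, Esrrg 1457896_at and Ncoa1 1443397_at, read between 7.39 and 72.1 in all arrays and are not described further. Members are not independent readings, since 4 pairs of probe sets share an annotated target sequence (1 pair each in Ppargc1a and Ncoa2 and 2 pairs in Nrip1).

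ERRs are orphan nuclear receptors, so called because no natural hormone is established for them. They bind DNA at an extended half-site of the nuclear receptor type and depend on coactivators for their activity. PGC-1 proteins bind ERRs and raise the transcription of mitochondrial and oxidative genes, p160 proteins bring in histone acetyltransferases, and the Nrip1 protein (RIP140) recruits corepressors to the same receptor surface. ERRβ has been studied in the retina for its part in the survival of rod photoreceptors, which are among the most energy-demanding cells of the body.

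Retinas of mice at postnatal day 21 were compared on 6 Affymetrix arrays, each loaded with RNA of 2 pooled retinas from animals whose sex is given as mixed. The labelled knockout group held 3 arrays of ERRβ -/- mice on a C57Bl/6 x Sv129 background, and the wildtype group held 3 arrays of C57Bl/6 mice. Genotype and strain background cannot be told apart in this design, and the labels do not say which part of Esrrb was deleted or that the pools came from different litters. All mice were on standard chow and a 12:12 light cycle.

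Values are linear signals per probe set. The trimmed mean of an array was 500 in replicates 1 and 2 of both groups and 150 in replicate 3 of both groups, so signals are compared only within these 2 scaling batches. Replicate 3 differed in more than scale. Log2 signals correlated at 0.953 to 0.978 between arrays of one scaling batch and at 0.799 to 0.864 between batches, and a constant factor would leave these values unchanged. The cause was not tested. Log2 differences are labelled knockout minus wildtype with the standard error (SE) of a limma fit over all 27022 kept probe sets with the scaling batch as a block (n = 3 per group), and a call is a Benjamini-Hochberg adjusted p under 0.05. By that rule 609 probe sets were called (2.25%), 329 lower and 280 higher. Scaling the arrays to one median moved all differences up by 0.10 and turned this split to 119 lower and 165 higher. None of the 7 kept rod markers or 5 cone markers was at 0. No lens marker was at 0 either, though the lowest read 4.64, so this is no test of presence.

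Marker signals of other tissue differed between the groups, and whether they came from such tissue was not tested. Of 12 lens markers 10 rose in the labelled knockout arrays and none fell, and their median log2 difference was 3.66. Their summed signal was 50007 and 43062 in labelled knockout replicates 1 and 2, against 2845 and 2182 in wildtype replicates 1 and 2, and 33957 against 6039 in replicate 3, with no marker at 0. Of 7 kept markers of pigment epithelium and choroid 4 rose and none fell (median 0.62), with summed signals of 35800 and 42229 against 31097 and 31608 in replicates 1 and 2, and 1566 against 863 in replicate 3. The summed signal of the rod markers was 164211 and 185163 in labelled knockout replicates 1 and 2, against 211803 and 209834 in wildtype replicates 1 and 2, and 29699 against 30872 in replicate 3. None of the 7 kept rod markers was called, and their median log2 difference was -0.37 in replicates 1 and 2 and 0.003 in replicate 3. The summed signal of the 5 cone markers, none of them called, was 39647 and 41835 against 36725 and 37696, and 6321 against 6448. The 3′ to 5′ signal ratio of the Actb control, which reflects RNA integrity, was 1.82, 1.66 and 1.67 in labelled knockout and 1.83, 1.89 and 2.32 in wildtype replicates 1, 2 and 3. The same ratio of Gapdh was 0.731, 0.719 and 0.731 in labelled knockout and 0.727, 0.712 and 0.779 in wildtype, higher in labelled knockout replicates 1 and 2 and lower in replicate 3. The part of these ratios, and that of the lens and pigment marker signals, in the differences described below was not tested. In tissue RNA, fewer cells of a type and less RNA per cell cannot be told apart.

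The sequence that ERRs are known to bind was looked for in the promoters of these genes, because receptors and coactivators of this family can lie among the targets of their own pathway. RefSeq promoter windows of GRCm38.p6, which run from 250 bases before to 50 bases after a transcript's start, were on hand for 7 of the 10 genes (12 windows). The full response element TCAAGGTCA and its core AAGGTCA occurred on neither strand in any of the 12, against 0.423% and 4.72% of all 32851 windows. The shorter half-site AGGTCA, which is part of both longer motifs, occurred in 1 of the 12 (Pprc1) and in 16.3% of all windows. GGTCA alone, contained in all of these, occurred in 4 of the 12 and in 40.5% of all. Absence of a match says only that these letters are not in the window. The 250 bases before the start are shown for the 3 genes that hold GGTCA there, the targeted gene, the gene with the called difference and the coactivator gene with the longer half-site. Sequences run 5′ to 3′ on the gene's strand and capitals mark GGTCA.
Esrrb, chr12:86360867-86361116, plus strand: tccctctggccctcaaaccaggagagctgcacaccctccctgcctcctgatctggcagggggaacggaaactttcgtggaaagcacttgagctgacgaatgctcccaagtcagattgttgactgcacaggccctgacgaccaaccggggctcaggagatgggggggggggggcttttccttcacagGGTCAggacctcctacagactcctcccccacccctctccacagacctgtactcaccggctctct
Nrip1, chr16:76373828-76374077, minus strand: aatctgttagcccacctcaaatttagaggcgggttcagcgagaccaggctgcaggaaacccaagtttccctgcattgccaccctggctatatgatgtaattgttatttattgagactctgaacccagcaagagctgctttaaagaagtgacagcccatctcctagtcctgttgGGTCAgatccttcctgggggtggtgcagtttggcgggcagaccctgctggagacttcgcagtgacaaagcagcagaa
Pprc1, chr19:46056289-46056538, plus strand: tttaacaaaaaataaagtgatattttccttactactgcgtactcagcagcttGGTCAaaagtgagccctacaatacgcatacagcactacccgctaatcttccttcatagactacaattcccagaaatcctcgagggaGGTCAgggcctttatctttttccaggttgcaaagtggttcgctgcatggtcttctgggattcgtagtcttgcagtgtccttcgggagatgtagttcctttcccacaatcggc
The match begins 64 bases before the start in Esrrb and 77 bases before it in Nrip1. In Pprc1 matches begin 198 and 112 bases before the start, and the second is part of AGGTCA.

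Across the 28 probe sets tested, 1 was lower in the labelled knockout arrays by the adjusted test and 0 were higher in limma, against 1.22% and 1.04% of all probe sets. At an unadjusted p under 0.05, 8 were lower and 5 higher (46.4% of members, against 20.4% of all probe sets). They belonged to Esrrb, Esrra, Ppargc1a, Nrip1 and Ncoa2. Probe sets of one gene are not separate readings, so shares of members here and below do not count genes. By the brightest probe set of each of the 10 genes, Esrrb, Ppargc1a, Nrip1 and Ncoa2 had an unadjusted limma p under 0.05, against 21.3% of all genes. The probe sets fell into gene-wise patterns. Those of Ppargc1a, Esrra, Ncoa1 and Ncoa3 lay below 0 and those of Esrrb and Ncoa2 above 0 under all 3 scalings tried. Those of Nrip1 lay below 0 apart from 1432603_at, which turned positive in 2 of the scalings. The single probe sets of Ppargc1b and Pprc1 gave 0.07 and 0.04, and 0.17 and 0.13 with arrays scaled to one median. In replicates 1 and 2 the groups did not overlap for 19 members (67.9%, against 58.7% of all kept probe sets), 13 with labelled knockout below and 6 above (31.7% and 26.9% of all). Replicate 3 had the same direction for 15 of these (53.6%, against 33.6% of all, of which 17.2% below and 16.4% above). The median log2 difference of the 28 was -0.13, against -0.02 over all kept probe sets.

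**Figure D1:**
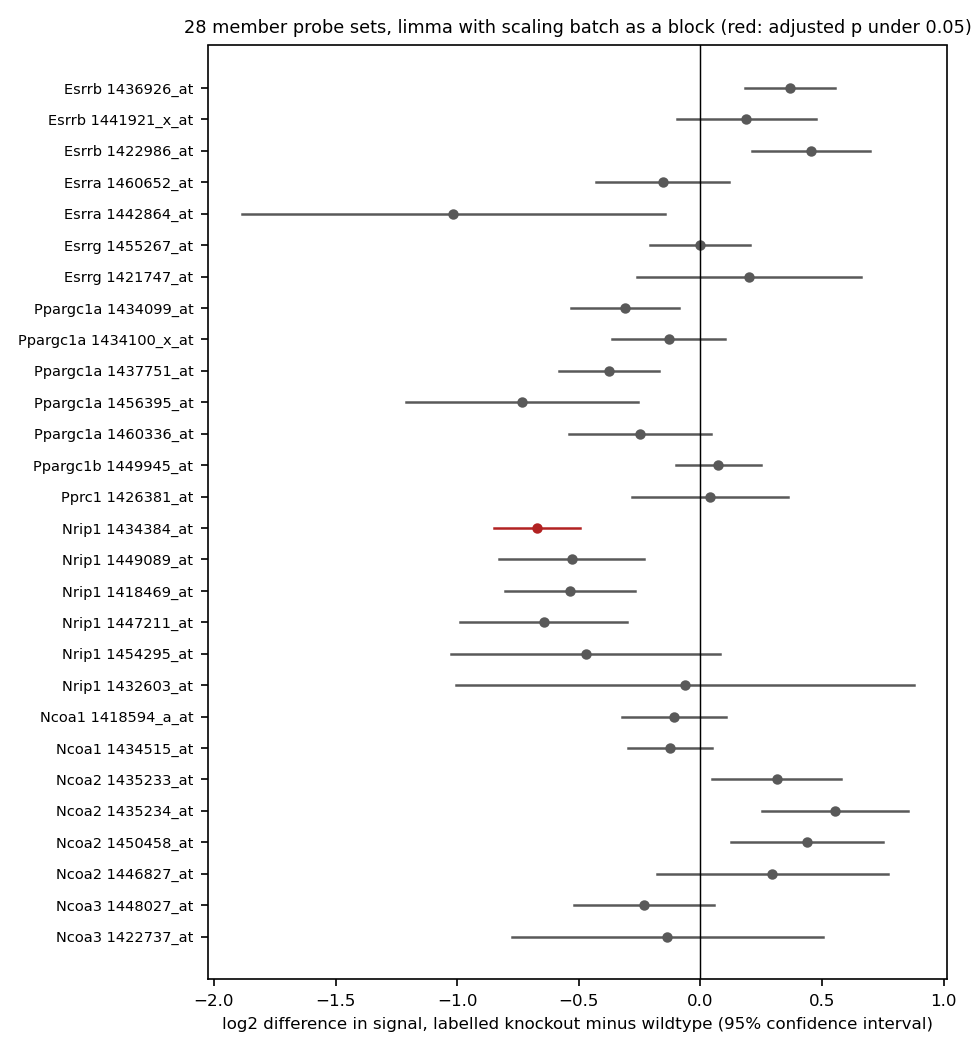
Log2 difference in signal, labelled knockout minus wildtype, with its 95% confidence interval, for the 28 tested probe sets in order of gene (limma with the scaling batch as a block, n = 3 per group). The red interval is Nrip1 1434384_at, from -0.85 to -0.49, the single call. A further 12 intervals, of Esrrb, Esrra, Ppargc1a, Nrip1 and Ncoa2, also lie on one side of 0 without passing the adjusted test.

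Esrrb, the gene targeted in the knockout, gave signal in all 6 arrays and was not lower in the labelled knockout. Its brightest probe set, 1436926_at, read 3435 and 4012 in labelled knockout replicates 1 and 2, against 2951 and 2934 in wildtype replicates 1 and 2, and 2397 against 1771 in replicate 3. The labelled knockout was above wildtype in both scaling batches, a log2 difference of 0.37 ± 0.082 that missed the threshold (adjusted p = 0.0529 in limma). Probe set 1422986_at read 1242 and 1259 in labelled knockout replicates 1 and 2, against 1029 and 973 in wildtype, and 467 against 284 in replicate 3 (0.45 ± 0.11, adjusted p = 0.0626). These 2 probe sets did not overlap between groups in replicates 1 and 2, and the single pair of replicate 3 had the same direction. The same held, with labelled knockout above, for 16.4% of all kept probe sets. The second had a difference of 0.32 in replicates 1 and 2 and 0.72 in replicate 3, and this change between batches did not pass (0.40 ± 0.16, adjusted p = 0.282 for the difference between batches).

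The third Esrrb probe set, 1441921_x_at, whose suffix marks probes that can bind other transcripts, read 1215 and 1064 in labelled knockout replicates 1 and 2, against 1034 and 816 in wildtype, and 442 against 458 in replicate 3. It gave 0.19 ± 0.13 (adjusted p = 0.439), with opposite signs in the 2 batches. In replicates 1 and 2 the groups did not overlap, as for 26.9% of all kept probe sets with labelled knockout above. The outcome for the other 2 depended on the fit and on which probe sets were tested with them. With only the brighter 40% of the array in the fit (18015 probe sets), adjusted p was 0.0393 for 1436926_at and 0.0459 for 1422986_at, and with all 45037 probe sets it was 0.0852 and 0.0901. With 16 added to every signal it was 0.0487 and 0.0584, and with replicates 1 and 2 only 0.0294 and 0.0528. With the replicate number as a block it was 0.111 and 0.135, and without a variance trend 0.264 and 0.257. Without wildtype replicate 2 it was 0.248 and 0.252. Neither passed with no block. Whether these probes lie inside or outside the deletion was not stated in the labels, and Esrrb signal therefore does not check them.

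Esrra, the receptor best known as the partner of PGC-1α in mitochondrial gene regulation, had no call. Its brighter probe set 1460652_at read 588 and 547 in labelled knockout replicates 1 and 2, against 619 and 685 in wildtype, and 124 against 130 in replicate 3. The groups did not overlap in replicates 1 and 2, as for 31.7% of all kept probe sets with labelled knockout below. The difference was small (-0.15 ± 0.12, 95% interval -0.43 to 0.12, adjusted p = 0.513). The dimmer probe set 1442864_at read 39.0 and 109 in labelled knockout, against 165 and 136 in wildtype replicates 1 and 2, and 54.9 against 85.5 in replicate 3. Its difference of -1.02 ± 0.39 had a wide interval, -1.89 to -0.15, and did not pass (adjusted p = 0.183). Array medians were 114 to 135 in replicates 1 and 2 and 57.3 to 61.5 in replicate 3.

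Esrrg, the third receptor, which is prominent in heart, muscle and nervous tissue, was close to level. Its bright probe set 1455267_at read 2602 and 2342 in labelled knockout replicates 1 and 2, against 2491 and 2205 in wildtype, and 1367 against 1525 in replicate 3. The groups overlapped in replicates 1 and 2, and the difference was -0.00 ± 0.091 with a 95% interval of -0.21 to 0.20 (adjusted p = 0.991). Its sign turned to 0.09 with arrays scaled to one median. The dim probe set 1421747_at gave 0.20 ± 0.21 (adjusted p = 0.624).

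**Figure D2:**
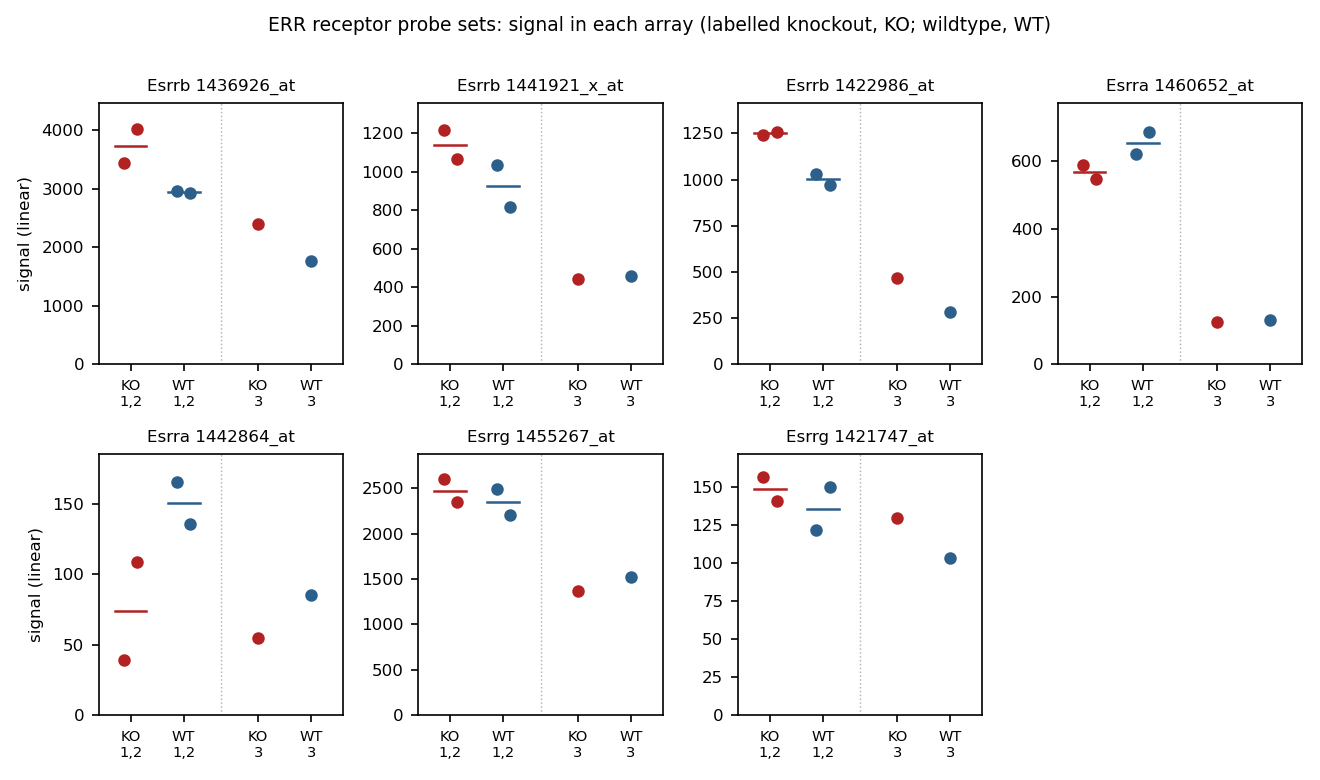
Linear signal of the tested probe sets of Esrrb, Esrra and Esrrg in each array. Red points are labelled knockout (KO) and blue points wildtype (WT), bars are means of replicates 1 and 2, and replicate 3, scaled lower, stands right of the dotted line. Esrrb 1436926_at and 1422986_at are above wildtype on both sides of the line, and Esrrg 1455267_at overlaps.

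Ppargc1a encodes PGC-1α, the inducible coactivator that binds ERRs. All 5 of its probe sets had negative differences in both scaling batches, but none passed the adjusted test. At its brightest probe set, 1434099_at, signals were 1158 and 993 in labelled knockout replicates 1 and 2, against 1297 and 1278 in wildtype, and 326 against 432 in replicate 3 (-0.31 ± 0.099, adjusted p = 0.128). Probe set 1437751_at differed least between the batches of the 5, with 675 and 658 in labelled knockout against 891 and 848 in wildtype replicates 1 and 2, and 518 against 666 in replicate 3. It amounted to -0.38 in replicates 1 and 2 and -0.36 in replicate 3 (-0.38 ± 0.092 over all arrays, adjusted p = 0.067).

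Probe set 1456395_at had the largest difference of the 5, with 950 and 519 in labelled knockout against 1339 and 1363 in wildtype replicates 1 and 2, and 249 against 309 in replicate 3 (-0.73 ± 0.21, adjusted p = 0.105). The other 2 Ppargc1a probe sets overlapped between groups in replicates 1 and 2, and their differences were -0.25 ± 0.13 for 1460336_at and -0.13 ± 0.10 for 1434100_x_at. In replicate 3 the 5 differences lay close together, from -0.40 to -0.31, while in replicates 1 and 2 they ran from -0.94 to -0.02. Probe sets 1434099_at and 1434100_x_at share a target sequence.

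The other members of that family were level. Ppargc1b encodes PGC-1β, a close relative of PGC-1α, and its single probe set 1449945_at read 3525 and 3285 in labelled knockout replicates 1 and 2, against 3442 and 3297 in wildtype, and 1364 against 1195 in replicate 3. The groups overlapped in replicates 1 and 2 and the difference was 0.07 ± 0.078, with a 95% interval of -0.10 to 0.25 (adjusted p = 0.639). Pprc1 encodes PRC, a serum-induced member of the family, and its single probe set 1426381_at read 415 and 381 in labelled knockout against 398 and 360 in wildtype replicates 1 and 2, and 101 against 103 in replicate 3 (0.04 ± 0.14, 95% interval -0.28 to 0.36, adjusted p = 0.909).

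Nrip1 was the single member gene with a call, lower in the labelled knockout. RIP140, its product, is a ligand-dependent corepressor of nuclear receptors that restrains oxidative metabolism in muscle and fat. Probe set 1434384_at, the brightest, read 1072 and 1106 in labelled knockout replicates 1 and 2, against 1770 and 1725 in wildtype, and 842 against 1318 in replicate 3. The groups did not overlap in replicates 1 and 2, and the labelled knockout array was also the lower one in replicate 3. The same held for 17.2% of all kept probe sets. Signal fell to 0.628 of wildtype, a log2 difference of -0.67 ± 0.079 (95% interval -0.85 to -0.49, adjusted p = 0.0038 in limma), with -0.68 in replicates 1 and 2 and -0.65 in replicate 3. It passed with the replicate number as a block (adjusted p = 0.0193) and missed the threshold without wildtype replicate 2 (-0.68, adjusted p = 0.0527). It also missed it without a variance trend, where 19 probe sets passed over the array (adjusted p = 0.167). In the same arrays 10 of 12 lens markers rose, and the Actb ratio was lower in every labelled knockout array, while the Gapdh ratio was not.

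All 6 Nrip1 probe sets separated the groups in replicates 1 and 2, with similar differences of -0.75 to -0.64. Of all kept probe sets 31.7% also separated them there with labelled knockout below. Probe set 1447211_at read 242 and 304 in labelled knockout against 453 and 394 in wildtype, and 117 against 184 in replicate 3, a difference of -0.64 ± 0.15 that had the same size in both batches (-0.64 and -0.65) but missed the threshold (adjusted p = 0.0622). Probe sets 1418469_at and 1449089_at share a target sequence and gave -0.54 ± 0.12 (adjusted p = 0.0514) and -0.53 ± 0.13 (adjusted p = 0.0709). For them the gap was smaller in replicate 3, at -0.27 and -0.23, against -0.67 and -0.68 in replicates 1 and 2. At 1418469_at the signals were 710 and 824 in labelled knockout against 1282 and 1151 in wildtype, and 418 against 505 in replicate 3.

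The 2 dim Nrip1 probe sets, which also share a target, did not hold their direction in replicate 3. Probe set 1454295_at read 119 and 121 in labelled knockout against 252 and 161 in wildtype, and 177 against 168 in replicate 3. Probe set 1432603_at read 71.4 and 65.2 against 106 and 111, and 47.1 against 21.4 in replicate 3, below the median of either array. Its difference over all arrays was -0.06 ± 0.42 and turned positive under both other scalings (0.03 and 0.09). No Nrip1 probe set passed the test of a difference between the scaling batches (adjusted p from 0.252 to 0.994).

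**Figure D3:**
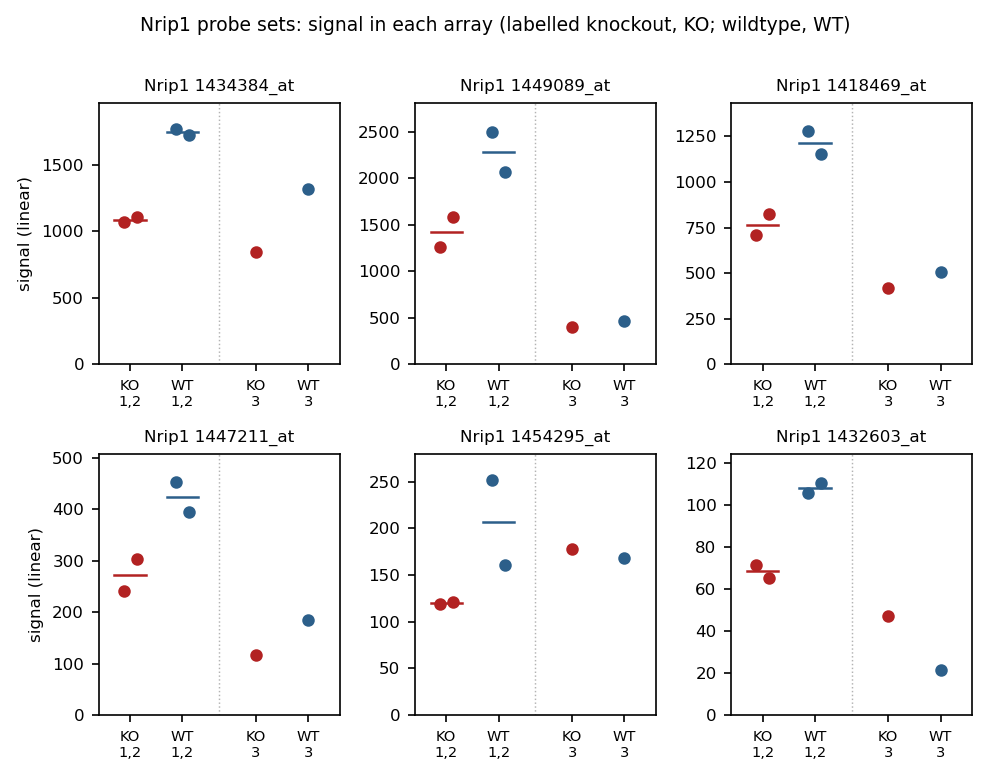
Linear signal of the 6 Nrip1 probe sets in each array. Red points are labelled knockout (KO), blue points wildtype (WT), bars are means of replicates 1 and 2, and replicate 3 stands right of the dotted line. In replicates 1 and 2 red lies below blue in all 6 panels, and in replicate 3 it does so in the first 4.

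Ncoa2, a p160 coactivator also called GRIP1 or TIF2, read higher in the labelled knockout arrays of replicates 1 and 2 but not clearly so in replicate 3, and had no call over all arrays. Its brightest probe set 1435233_at read 5174 and 4837 in labelled knockout against 3732 and 3318 in wildtype replicates 1 and 2, and 1406 against 1483 in replicate 3. Its difference was 0.51 in the first batch and -0.08 in the second (0.31 ± 0.12 over all arrays, adjusted p = 0.182). Probe set 1435234_at, which shares its target, read 1543 and 1533 against 941 and 869, and 384 against 351 in replicate 3 (0.55 ± 0.13, adjusted p = 0.0637).

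Probe set 1450458_at, on another Ncoa2 target, read 502 and 526 in labelled knockout against 350 and 342 in wildtype, and 167 against 148 in replicate 3 (0.44 ± 0.14, adjusted p = 0.126). The dim probe set 1446827_at overlapped between groups in replicates 1 and 2 (0.29 ± 0.21, adjusted p = 0.467). The change between batches was tested directly. It was -0.58 ± 0.14 for 1435233_at (adjusted p = 0.0925) and -0.64 ± 0.16 for 1435234_at (adjusted p = 0.108), and neither passed. Of the 28 members 4 had an unadjusted p under 0.05 for such a change (14.3%, against 15.7% of all probe sets) and 0 passed in limma after adjustment, while 321 did over the array (1.19%).

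**Figure D4:**
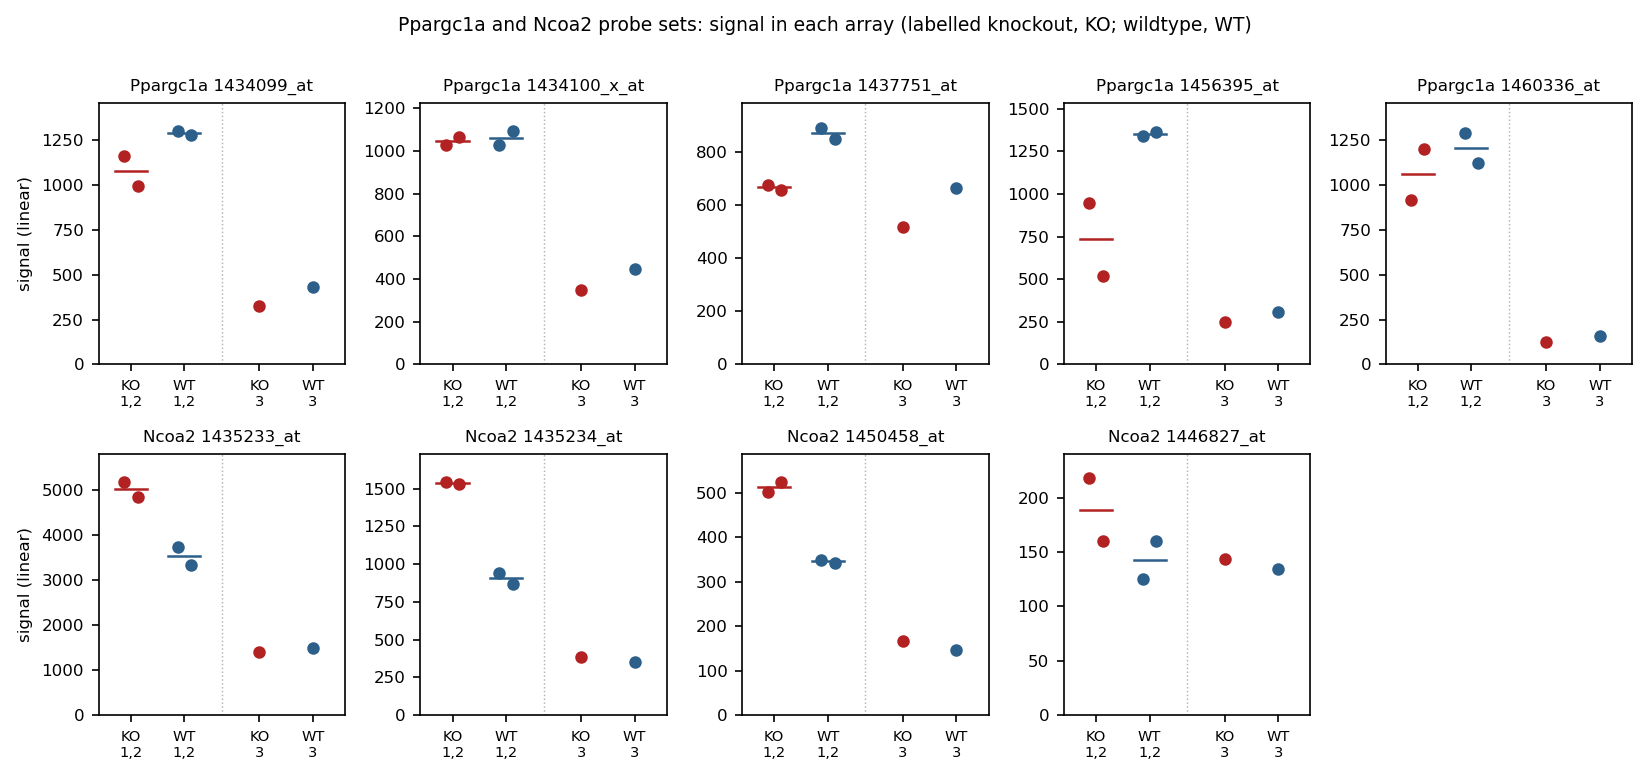
Linear signal of the 5 Ppargc1a and 4 Ncoa2 probe sets in each array. Red points are labelled knockout (KO), blue points wildtype (WT), bars are means of replicates 1 and 2, and replicate 3 stands right of the dotted line. Ncoa2 1435234_at reads 1533 to 1543 against 869 to 941 left of the line and 384 against 351 right of it.

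The other p160 genes differed little. Ncoa1, also called SRC-1, read 4370 and 3571 in labelled knockout against 4606 and 4291 in wildtype replicates 1 and 2 at its brightest probe set 1418594_a_at, and 868 against 857 in replicate 3 (-0.11 ± 0.095, adjusted p = 0.565). The groups overlapped there, and its second kept probe set 1434515_at gave -0.13 ± 0.077 (95% interval -0.30 to 0.05). Ncoa3, also called SRC-3, read 403 and 392 in labelled knockout against 505 and 476 in wildtype, and 149 against 159 in replicate 3 at its brighter probe set 1448027_at (-0.23 ± 0.13, 95% interval -0.52 to 0.06, adjusted p = 0.342). Its dimmer probe set 1422737_at gave -0.14 ± 0.28.

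Taking replicates 1 and 2 alone, 10 of the 28 members passed (35.7%, against 13.6% of all kept probe sets). They comprised 4 of Nrip1 and 2 of Ppargc1a, all lower, and 3 of Ncoa2 and 1 of Esrrb, all higher (7.7% of all probe sets were lower and 5.94% higher by this rule). That comparison rests on 2 arrays per group with 2 residual degrees of freedom, and in replicate 3 the Ncoa2 differences ran from -0.08 to 0.18. Replicate 3 gave negative differences for all 5 Ppargc1a probe sets and 4 of 6 Nrip1 probe sets, and positive ones for 2 of 3 Esrrb probe sets.

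**Figure D5:**
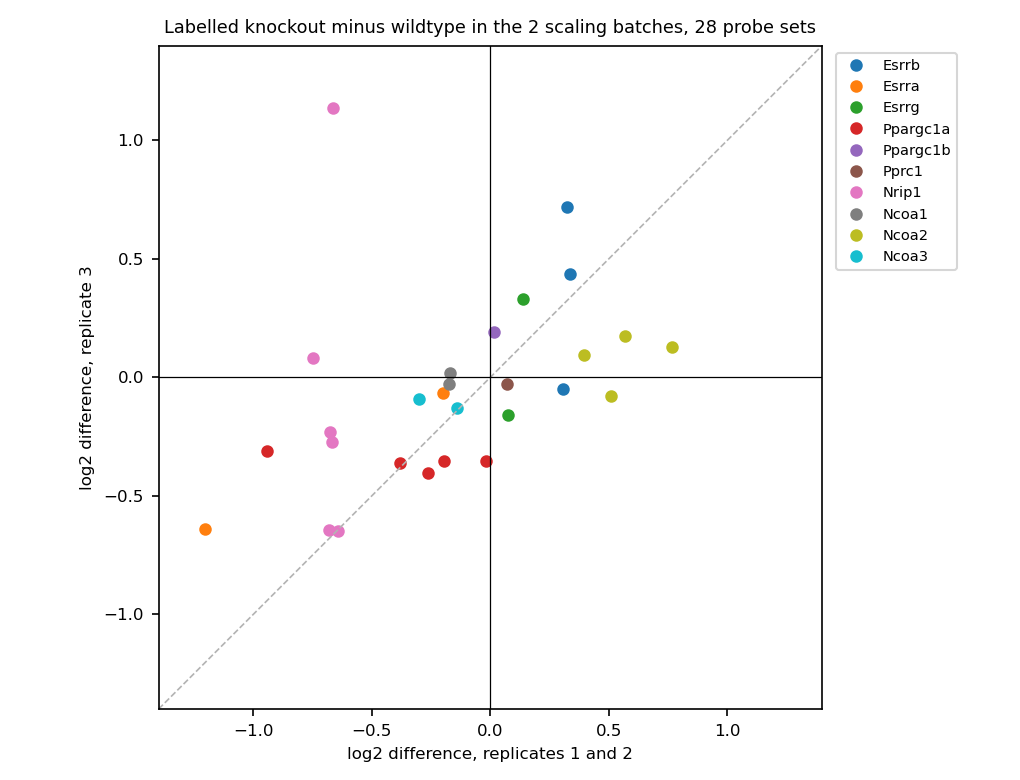
Log2 difference, labelled knockout minus wildtype, in replicates 1 and 2 (horizontal) and in replicate 3 (vertical), a point per tested probe set coloured by gene. The dashed line marks equal differences. Ncoa2 lies right of 0 but between -0.08 and 0.18 on the vertical axis, Ppargc1a lies between -0.40 and -0.31 on it, and 2 Nrip1 points lie on the dashed line near -0.65.

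Further coregulators of nuclear receptors, 31 genes of which 27 were measured after the filter, gave 1 call. Crebbp, the histone acetyltransferase CBP that p160 proteins recruit, fell by 0.44 ± 0.086 (log2; limma adjusted p = 0.0363; 985, 1083 and 830 in labelled knockout replicates 1, 2 and 3, against 1461, 1389 and 1079 in wildtype). With the replicate number as a block it did not pass (adjusted p = 0.0972). The other 26 did not pass in limma, and at an unadjusted p under 0.05 the list held 7 lower and 3 higher genes of 27, against 21.3% of all genes in either direction. Lcor, a ligand-dependent corepressor, had -0.48 ± 0.11 (adjusted p = 0.0613), and Med1, the Mediator subunit that nuclear receptors contact, had -0.36 ± 0.14 (adjusted p = 0.197; -0.58 in replicates 1 and 2 and 0.09 in replicate 3). The list's median of 0.01 was near that of all genes, 0.02. The background for genes, each by its brightest kept probe set, was 2.75% called of 12536 (1.48% lower and 1.28% higher).

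Known targets of ERRs and PGC-1 proteins, 24 genes of which 20 were measured, also gave 1 call. It was Ppara, the receptor for fatty acids, which had a log2 difference of -2.23 ± 0.48 (adjusted p = 0.0497 in limma). With a replicate block it missed the threshold (adjusted p = 0.0713). Its signals were 137, 38.8 and 94.6 in labelled knockout against 545, 532 and 181 in wildtype replicates 1, 2 and 3. The difference was -2.88 in replicates 1 and 2 and -0.93 in replicate 3. Labelled knockout replicate 2 lay below the median signal of its array, 114, which limits what the size of the Ppara difference shows. The other 19 did not pass, and the share called among all genes was 2.75%. At an unadjusted p under 0.05, 2 of the 20 were higher and 1 lower, against 21.3% of all genes in either direction. Tfam, the mitochondrial transcription factor gene, had 0.28 ± 0.13 (adjusted p = 0.26; 0.43 in replicates 1 and 2 and -0.04 in replicate 3), and Sdhb, a subunit of respiratory complex II, had 0.27 ± 0.071 (adjusted p = 0.0853). The median was 0.01, against 0.02 over all genes. When every kept probe set was counted, 2 of 47 passed, against 2.25% of all kept probe sets.

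On chromosome 12, the 25 measured genes on either side of Esrrb held 3 calls among 50 (6%, against 2.75% of all genes), all lower. They were Fos, an immediate early transcription factor gene 8 places before Esrrb (-1.42 ± 0.18, adjusted p = 0.00577), Ylpm1 18 places before it (-0.58 ± 0.12, adjusted p = 0.0376) and Dio2, the thyroid hormone activating deiodinase gene, 18 places after it (-0.57 ± 0.11, adjusted p = 0.0301). With a replicate block Fos passed (adjusted p = 0.00833), and Ylpm1 and Dio2 did not (adjusted p = 0.0666 and 0.0714). The immediate neighbours Gpatch2l and Angel1 had 0.25 (adjusted p = 0.28) and 0.09 (adjusted p = 0.737).

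Patterns over the 6 arrays were also compared, after centring each scaling batch on its own mean. Most like the brightest Esrrb probe set were Nmnat1, an enzyme gene of NAD synthesis (log2 difference 0.52), Ptp4a3 (0.22) and Cnn3 (0.19), with Pearson r of 0.998 to 0.999. None of these was called. Most like that of Nrip1 were Pdia5, a protein disulfide isomerase gene (-2.01, adjusted p = 1.91e-05), Septin11 (-0.27) and Atp11b (-0.32), each with r of 1.00. These correlations rest on 6 centred values and carry no test, and 49 probe sets for Esrrb and 60 for Nrip1 had r above 0.99. Between all pairs of probe sets of one gene, not picked for likeness, the median r was 0.854 for Nrip1 (15 pairs), 0.785 for Ncoa2 (6 pairs), 0.612 for Ppargc1a (10 pairs) and 0.37 for Esrrb (3 pairs). The single pair had r of 0.596 in Ncoa1, 0.404 in Esrra, 0.265 in Ncoa3 and -0.403 in Esrrg. Centring leaves the group difference in these values, so a high r can restate differences of the same sign. Pairs that share a target sequence are included.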

How the data were processed

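The deposited values are linear intensities of probe sets, made by the authors with GCOS 1.4 and MAS5, per the submitters' processing notes; what each tool did is not stated there. RNA was amplified in a single round from an oligo dT primer and biotin-labelled, per the labels' protocols. Of 45101 probe sets 64 controls were left out. Signals were log2 transformed without further normalization, and the 27022 probe sets at or above the 40th percentile of mean log2 signal (a geometric mean of 54.5) entered a two-sided test by lmFit and eBayes with a variance trend (limma 3.58.1, R 4.3.3). The scaling batch was a block, leaving 3 residual degrees of freedom. The difference between batches was tested with group by batch cells, in which the lone replicate 3 arrays are assumed to vary like the others. Arrays give no read depth, and the number of arrays limits precision.

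Deviations from the group means correlated at 0.57, 0.67 and 0.843 for same-numbered arrays. All 3 pass a limit of 0.1, and the replicate number in the sample titles was tried as a block in an alternative fit. The main fit was blocked on the scaling batch and did not pair arrays by replicate number. Group means span both scaling batches, so arrays of one batch can correlate whatever their number. Crossed pairs of numbers 1 and 2 gave 0.627 and 0.607, so within that scaling batch the numbers showed no pairing of their own. Nothing says that samples came from separate litters, and the p-values therefore cover only the spread among these arrays, which may be technical.

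Members, lists and tests were chosen with earlier results of these data known. Text values were given for every Esrrb probe set, every called member and the brightest probe set of each gene, and other probe sets of Nrip1, Ppargc1a, Ncoa2, Esrra, Esrrg, Ncoa1 and Ncoa3 were added after their values were seen. Of each list, called genes were named (at most 8), or the 2 largest differences where fewer than 2 were called. Symbols came from the platform annotation, in which 34945 probe sets had 1 symbol, 932 several and 9160 none. Gene order came from RefSeq GRCm38.p6. Alternatives were other filters, blocks, scalings, an offset, arrays left out and no variance trend.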

Additional observations from a re-analysis of the deposited data

How the results depend on the processing

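Over all probe sets, 609 calls became 0 with no block (118 at an unadjusted p under 0.05), 200 with a replicate block, 405 with no filter on low signal, 955 with a 60th percentile filter, 284 with arrays scaled to one median, 19 with no variance trend and 3687 with replicates 1 and 2 only. With an array left out the count ran from 77 (without wildtype replicate 2) to 3710 (without knockout replicate 3). Among members, the 1 call of 28 became 0 with no block (0 at an unadjusted p under 0.05). It became 0 with no variance trend (12 at an unadjusted p under 0.05, against 4452 of all 27022 probe sets). With 16 added to every signal it became 3 of 28, against 697 of 27022. The 60th percentile filter gave 7 of 22, against 955 of 18015. Replicates 1 and 2 only gave 10 of 28, against 3687 of 27022. With an array left out the member count ran from 0 without wildtype replicate 2 (77 over the array) to 11 without wildtype replicate 3 (3697 over the array). It was 10 without knockout replicate 3 (3710 over the array). The replicate block, no filter, quantile normalization and scaling to one median left it at 1.

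Nrip1 1434384_at stayed between -0.68 and -0.65 with an array left out and had -0.57 with arrays scaled to one median (adjusted p = 0.0462), and missed the threshold with no block (adjusted p = 1.000). Esrrb 1441921_x_at reversed in replicate 3 alone (-0.0498). The replicate block changed the call of Crebbp, Ppara, Ylpm1 and Dio2 and of no member. By an alternative added after seeing the data, the 1 call among further coregulators became 0 with that block (8 at an unadjusted p under 0.05) and 8 of 27 with replicates 1 and 2 only, the 1 among ERR and PGC-1 targets became 0 (2 at an unadjusted p under 0.05) and 5 of 20, and the 3 next to Esrrb became 1 and 5 of 50. With replicates 1 and 2 only, 14.3% of all genes were called. Counting every kept probe set gave 2 among the targets. The cause was not tested. Nrip1 1432603_at lay below the median signal in all 6 arrays, which limits what can be read from it.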
